A study of Rattus norvegicus with 4 samples.

Results

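The voltage-gated sodium channel genes were examined in the RNA-Seq libraries of 2 clones of PC12, a line of rat adrenal tumour cells. The group consists of 8 of the 25810 genes in the count tables, taken by gene name: the pore (alpha) subunit genes Scn2a1, Scn3a, Scn4a, Scn8a and Scn9a, and the beta subunit genes Scn2b, Scn3b and Scn4b. The wild type clone, wtPC12, is labelled as low in REST, the repressor of neural genes, and hrPC12 (formerly PC12-27) as high in REST. Each clone was sequenced in 2 libraries prepared from extracted RNA, with no treatment named in the labels. The libraries of a clone were numbered in the order of the deposited records, which pairs no libraries, and values are given in that order. With 1 clone per REST level, the effect of REST cannot be told apart from other ways in which the clones differ. The labels do not say whether the libraries of a clone came from separate cultures. If they did not, the p values cover technical spread only.

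Voltage-gated sodium channels carry the fast inward current that starts the action potential. The pore subunit is a single large protein with its own voltage sensors, and it conducts sodium without help. The beta subunits are small membrane proteins with an immunoglobulin-like fold, which alter the gating and surface density of the pore and also act as adhesion molecules. Sodium channel genes are classical neuronal genes, and the gene of the pore subunit Nav1.2 (Scn2a1 here, Scn2a in current nomenclature) is among those in which the REST site, called RE1, was first described.

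Reads on genes numbered between 20975027 and 27246502 per library, and genes without a read in a library can still hold up to 3 reads' worth of expression, which corresponds to 2.54 to 3.49 normalized counts. Normalized counts are reads divided by edgeR's effective library size (TMM) and rescaled to the mean library. Intervals and limits of this kind cover counting error only, and not the spread between libraries. Reads were not marked by molecule, so even the counting error can be understated. Rest itself had 43.0 and 132 normalized counts in wtPC12 libraries 1 and 2, against 964 and 915 in hrPC12 (log2 FC 3.42, standard error (SE) 0.57, Benjamini-Hochberg adjusted p = 0.0115 in the edgeR quasi-likelihood fit). With wtPC12 replicate 1 left out the log2 FC of Rest was 2.80, and with wtPC12 replicate 2 left out it was 4.44. With all 4 libraries its adjusted p thus missed the threshold of 0.01 and Rest was not called. It also missed with edgeR's filterByExpr filter (0.0111). The adjusted p of Rest was under 0.01 in edgeR with RLE factors (0.00207), library totals alone (0.00356), no filter beyond 1 read (0.00145) or the legacy option off (0.00918). The same held with DESeq2 (1.94e-10). Of the chromaffin markers, 5 of the 6 tested were lower in hrPC12 past both thresholds given below (5.46% of all tested genes). The other, Ddc, was not called, with 24196 and 20841 normalized counts in wtPC12 and 26281 and 27995 in hrPC12. The list summed to 814643 to 952888 normalized counts in wtPC12 and 45708 to 50282 in hrPC12. Most of the sum was Chgb in wtPC12 (687936 and 626776) and Ddc in hrPC12. Of 8 skeletal muscle markers, 5 were higher in hrPC12 past both thresholds (4.84% of all tested genes), while the libraries of Casq1 overlapped (log2 FC −0.18). The sum of the 8 went from 98.9 to 111 up to 4415 to 4854 normalized counts. Most of this sum in hrPC12 was Myod1 (3258 and 3576). The summed glial markers were at 166 and 162 normalized counts in wtPC12 and 237 and 257 in hrPC12. The summed leukocyte markers were at 34.9 and 33.0 in wtPC12 and 84.7 and 94.1 in hrPC12, so that both sums were higher in hrPC12 without overlap, with Sox10 at 0 in every library and Ptprc at 1 read in hrPC12 replicate 1 alone. The part of these markers in the results on sodium channels was not tested. In bulk RNA, fewer cells that express a gene and less RNA per cell cannot be told apart.

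The clones were compared with edgeR across 13726 genes, and a gene was called when its adjusted p was under 0.01 and its log2 FC (hrPC12 over wtPC12) past 2 in either direction. Of the 8 sodium channel genes, Scn3b and Scn2a1 were called lower in hrPC12 and none was called higher. The share of all tested genes called lower was 5.46%, called higher 4.84%, and called in either direction 10.3%. Scn3a, Scn8a and Scn4b were tested and missed the adjusted p threshold, while Scn4a, Scn9a and Scn2b had too few reads to be tested (a mean under 5 normalized counts). At an unadjusted p under 0.05 from edgeR's test, 4 genes were lower and 1, Scn4b, was higher, where 22.7% of all tested genes were lower and 23.6% higher. DESeq2 called 3 lower (Scn8a in addition) and 1 higher (Scn4b), and of all tested genes 6.62% lower and 6.4% higher. In 4 of the 5 tested genes both hrPC12 libraries lay below both wtPC12 libraries, as did 35.6% of all tested genes. The libraries of Scn4b lay the other way, as did 37.9% of all tested genes. So did those of Scn9a, which was not tested and is not covered by these shares. The median log2 FC was −2.62 over the 5 tested sodium channel genes and 0.06 over all 13726. Scn3a (means of 11.4 normalized counts in wtPC12 and 1.86 in hrPC12) reached the minimum mean only through wtPC12. Scn4b (3.81 and 43.0) reached it only through hrPC12. The directions of these genes in the counts above are thus not independent of the filter and lend no support.

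**Figure D1:**
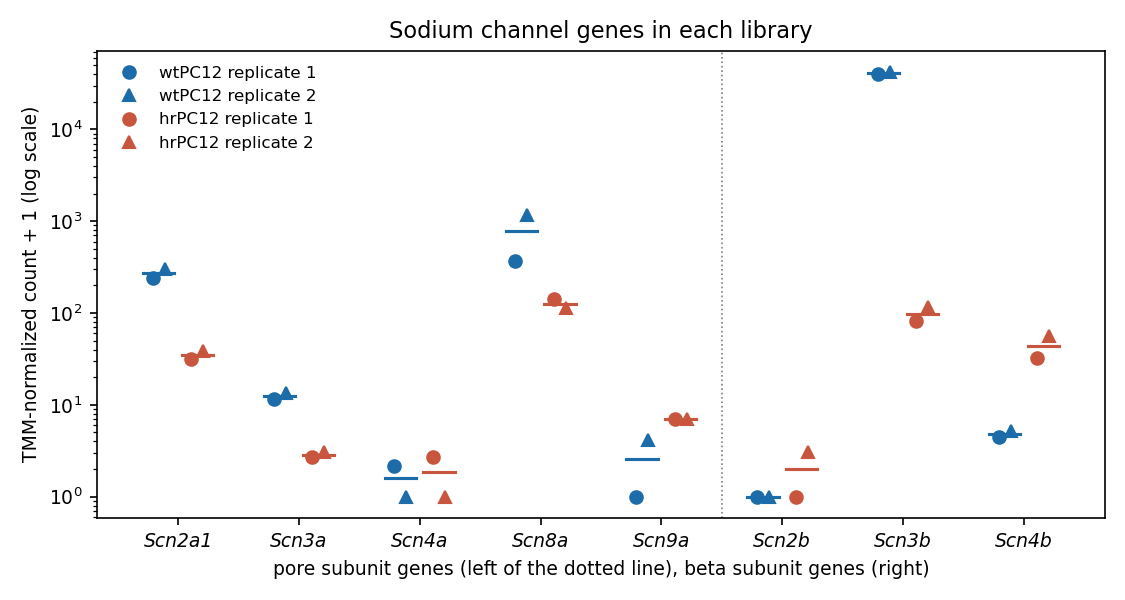
TMM-normalized counts plus 1 (log axis) of the 8 sodium channel genes, with 1 point per library and a line at the mean of each clone (n = 2). Scn3b stands at about 41035 normalized counts in wtPC12 and 97.4 in hrPC12, Scn8a stands at 369 and 1176 in the wtPC12 libraries, and both hrPC12 libraries of Scn4b lie above those of wtPC12.

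The promoter windows of the tested members are shown because they differ widely in base composition. RefSeq promoters on the rat assembly GRCr8 (250 bases before to 50 after the start of the gene) were found for 7 of the 8 genes, with no entry for Scn3b. The assembly differs from that of the counts. Of the windows below, Scn2a1 lies at chr3:70710706-70711005 on the plus strand, Scn3a at chr3:70666149-70666448 on the minus strand, Scn8a at chr7:133860977-133861276 on the plus strand and Scn4b at chr8:54343623-54343922 on the plus strand. They are written 5′ to 3′, and the capitals mark each CG dinucleotide.
Scn2a1: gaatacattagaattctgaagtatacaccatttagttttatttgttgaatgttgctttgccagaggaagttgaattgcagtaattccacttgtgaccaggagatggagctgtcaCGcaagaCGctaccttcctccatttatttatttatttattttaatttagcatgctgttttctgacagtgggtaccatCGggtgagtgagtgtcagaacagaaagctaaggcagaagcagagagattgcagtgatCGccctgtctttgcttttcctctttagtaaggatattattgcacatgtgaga
Scn3a: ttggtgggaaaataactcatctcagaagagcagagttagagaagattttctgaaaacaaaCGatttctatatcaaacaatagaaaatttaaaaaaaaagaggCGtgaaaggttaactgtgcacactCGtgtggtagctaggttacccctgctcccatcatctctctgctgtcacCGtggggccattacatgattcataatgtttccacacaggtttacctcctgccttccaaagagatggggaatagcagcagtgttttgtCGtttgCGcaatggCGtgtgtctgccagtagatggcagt
Scn8a: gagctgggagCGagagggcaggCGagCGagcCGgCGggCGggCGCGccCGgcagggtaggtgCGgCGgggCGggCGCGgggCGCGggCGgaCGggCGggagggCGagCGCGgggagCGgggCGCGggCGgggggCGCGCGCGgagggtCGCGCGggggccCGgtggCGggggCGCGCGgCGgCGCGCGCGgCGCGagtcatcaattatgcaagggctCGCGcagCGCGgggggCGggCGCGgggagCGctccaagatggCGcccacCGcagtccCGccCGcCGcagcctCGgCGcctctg
Scn4b: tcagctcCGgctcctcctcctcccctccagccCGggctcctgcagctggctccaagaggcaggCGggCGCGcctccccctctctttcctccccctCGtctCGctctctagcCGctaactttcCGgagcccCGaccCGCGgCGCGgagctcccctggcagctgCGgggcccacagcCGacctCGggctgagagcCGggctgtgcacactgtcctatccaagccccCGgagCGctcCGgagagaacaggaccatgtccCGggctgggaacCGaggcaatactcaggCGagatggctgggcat

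The windows of Scn2a1 and Scn3a held 4 and 7 CG dinucleotides, with 39.3% and 43.3% G and C. That of Scn8a held 60, with 84.7% G and C, and that of Scn4b held 24, with 70.0%. The median over all 33469 promoters was 7 CG dinucleotides and 51.7% G and C. The left part of RE1 (TTCAGCACC) and its right part (GGACAGCGC) were searched on both strands with at most 1 mismatch each. Neither was found in the windows of the 7 members. The left part occurs in 7.93% of all promoters, the right part in 8.34%, and both 2 bases apart on a strand in 0.0299%. The absence of these letters from 300 bases says nothing of sites elsewhere in the genes.

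Scn3b, the gene of the beta3 subunit, was the sodium channel gene with the largest difference. It had 39932 and 42137 normalized counts in wtPC12 libraries 1 and 2, against 80.4 and 114 in hrPC12. The means were 41035 ± 1559 and 97.4 ± 24.0 (SD, n = 2). The wtPC12 libraries thus lay close to each other and far above both hrPC12 libraries. The log2 FC was −8.72 (SE 0.32, Benjamini-Hochberg adjusted p = 0.000261 in the edgeR quasi-likelihood fit), or 422-fold lower in hrPC12. From the lowest log2 FC of the 13726 tested genes, it was at rank 53. By normalized count Scn3b was at rank 30 of all genes in wtPC12 and at rank 10620 in hrPC12. It was still read in hrPC12, with 95 and 113 reads. Without wtPC12 replicate 2 the log2 FC was −8.68 and the adjusted p 0.0139, above the threshold of 0.01, and in that fit edgeR called 0 of all genes in either direction, with 3564 lower and 3234 higher at an unadjusted p under 0.05. DESeq2 was not run on 3 libraries.

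Scn3b also took most of the sodium channel reads in wtPC12. In wtPC12 replicates 1 and 2 it took 98.5% (95% exact binomial interval 98.3 to 98.6%) and 96.6% (96.4 to 96.7%) of the reads on the 8 genes. In hrPC12 replicates 1 and 2 it took 27.6% (23.0 to 32.7%) and 34.9% (29.7 to 40.3%). These are shares of reads and not of transcripts, since a long transcript yields more reads and transcript lengths were not used here. For the same reason the levels of different members were not ranked. The sum over the 8 genes was 40558 and 43636 normalized counts in wtPC12 and 291 and 328 in hrPC12.

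The genes whose centred log2 counts in the 4 libraries were closest to those of Scn3b were Bmp7, Sez6l, Nrsn1, Nrxn2 and RGD1310269, at Euclidean distances of 0.35 to 0.45 on the log2(normalized count + 1) scale. With 4 libraries in 2 clones this likeness rests mainly on the size of the difference between the clones. Nrxn2, the gene of the presynaptic adhesion protein neurexin 2, had 1931 and 1895 normalized counts in wtPC12 and 1.69 and 4.05 in hrPC12. Sez6l had 992 and 1351 in wtPC12 and 2 reads in each hrPC12 library.

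Scn2a1 was the pore gene that was called. It encodes Nav1.2, a pore of central neurons found early in unmyelinated axons and in the initial segment. It had 242 and 303 normalized counts in wtPC12 libraries 1 and 2, against 30.5 and 37.4 in hrPC12. The means were 272 ± 43.1 and 34.0 ± 4.92 (SD, n = 2). Both hrPC12 libraries, at 11.2% and 13.7% of the wtPC12 mean, lay below both wtPC12 libraries. The log2 FC was −3.002 (SE 0.34, Benjamini-Hochberg adjusted p = 0.00360 in the edgeR quasi-likelihood fit), or 8.01-fold lower. Without wtPC12 replicate 2 the log2 FC was −2.83 and the adjusted p 0.0245.

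Scn3a, the gene of Nav1.3, a pore of the embryonic nervous system, had far fewer reads. There were 9 and 12 reads in wtPC12 replicates 1 and 2, and 2 in each hrPC12 library. Pooled over the libraries of a clone and corrected for library size, the ratio of hrPC12 to wtPC12 was 0.161, with a 95% exact interval for counting error of 0.0401 to 0.476. The libraries did not overlap, and the log2 FC of −2.55 (SE 0.62) had a Benjamini-Hochberg adjusted p of 0.0339 in the edgeR fit. Both hrPC12 libraries lay under the limit of 3 reads, so this fold is to be read as a bound only. DESeq2 gave a log2 FC of −2.66 (SE 1.65, adjusted p = 0.195). Scn3a was not tested without wtPC12 replicate 2, where its mean fell under the minimum.

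Scn8a, the gene of Nav1.6, the main pore of mature nodes of Ranvier and of the distal initial segment, had the most reads among the pore genes in each library. It had 369 and 1176 normalized counts in wtPC12 libraries 1 and 2, against 140 and 111 in hrPC12. The means were 773 ± 571 and 125 ± 20.1 (SD, n = 2). The hrPC12 libraries were lower than both wtPC12 libraries, but the wtPC12 libraries themselves differed by 3.19-fold. A ratio of wtPC12 replicate 2 to replicate 1 at least as high was found in 2.91% of the 13489 tested genes with reads in both, and the median ratio was 0.971. For Scn2a1 this ratio was 1.25 and for Scn3b 1.06. The log2 FC of Scn8a was −2.62 (SE 0.61, Benjamini-Hochberg adjusted p = 0.0292 in the edgeR quasi-likelihood fit), or 6.15-fold lower. The fold thus passed its threshold and the adjusted p did not. The log2 FC was −3.26 without wtPC12 replicate 1, with an adjusted p of 0.00245, and −1.55 without wtPC12 replicate 2, with an adjusted p of 0.0418. Without hrPC12 replicate 1 it was −2.79 (adjusted p = 3.95e-05) and called. DESeq2 with 4 libraries called it too (log2 FC −2.66, adjusted p = 6.73e-06).

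Scn4b, the gene of the beta4 subunit, had its values the other way. This subunit is joined to the pore by a disulfide bond, and its intracellular tail is known to support resurgent sodium current. Scn4b had 3 and 4 reads in wtPC12 libraries 1 and 2, against 37 and 54 in hrPC12, which correspond to 3.49 and 4.12, and to 31.3 and 54.6 normalized counts. The means were 3.81 ± 0.446 and 43.0 ± 16.5 normalized counts (SD, n = 2). Both hrPC12 libraries were above both wtPC12 libraries, and the ratio of pooled reads was 10.97 (95% exact interval for counting error 5.11 to 28.1). The log2 FC of 3.45 (SE 0.58) had a Benjamini-Hochberg adjusted p of 0.0121 in the edgeR fit. It passed under 7 of the 12 other settings, among them DESeq2 (adjusted p = 0.00415) and edgeR's RLE factors (0.00541). The setting with an adjusted p under 0.05 is among the 7 and reuses the same fit. Of the fits with a library left out, edgeR called Scn4b in that without hrPC12 replicate 1 (adjusted p = 9.89e-05). The adjusted p was 0.0447 without wtPC12 replicate 1, 0.0632 without wtPC12 replicate 2 and 0.0177 without hrPC12 replicate 2.

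**Figure D2:**
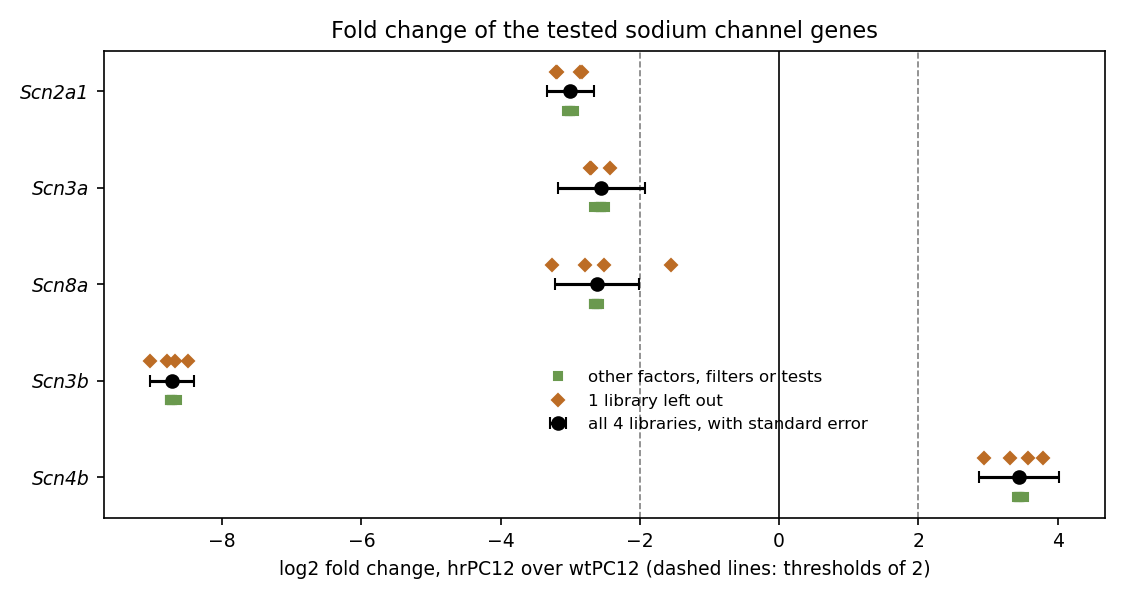
Log2 FC (hrPC12 over wtPC12) of the 5 tested sodium channel genes, with all 4 libraries (black, bars are the standard error), with other normalization factors, filters or tests (squares) and with 1 library left out (diamonds). Scn3b lies near −8.72, the 3 pore genes between −3.002 and −2.55, and Scn4b at 3.45, and the diamond of Scn8a within the threshold is the fit without wtPC12 replicate 2.

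The remaining members, 3 in number, were at or near the limit of detection. Scn9a, the gene of Nav1.7, a pore typical of sensory and sympathetic neurons, had 0 and 3 reads in wtPC12 libraries 1 and 2, against 7 and 6 in hrPC12. The ratio of pooled reads was 3.66, with a 95% exact interval for counting error of 1.005 to 20.002. With every gene that had a read entered in the test, its log2 FC was 1.81 (SE 1.14, Benjamini-Hochberg adjusted p = 0.276 in the edgeR quasi-likelihood fit). Without wtPC12 replicate 1, where it passed the filter, the log2 FC was 0.90 (adjusted p = 0.505). Scn4a, the gene of the skeletal muscle pore Nav1.4, had 1 and 0 reads in wtPC12 and 2 and 0 in hrPC12, so no difference was detectable at this depth. Of the muscle markers, Myod1 and Casq2 had 3534 to 3849 and 244 to 283 reads in the same hrPC12 libraries. The rest of that list is given here in full, with the reads of hrPC12 replicates 1 and 2. Acta1 had 695 and 654, Tnnt3 212 and 171, and Myog 86 and 83. Ckm had 49 and 55, Mb 27 and 36, and Casq1 14 and 20. Scn2b, the gene of the beta2 subunit, had 0 reads in each wtPC12 library, and 0 and 2 in hrPC12.

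Beside these 8 genes, Scn7a, Scn10a and Scn11a of the same family had at most 4 reads in any library and could not be tested. Among the 5 pore members, the reads of wtPC12 were thus on Scn8a and Scn2a1 for the most part. Scn8a took 59.3% (95% exact binomial interval 55.0 to 63.4%) and 78.7% (76.5 to 80.8%) of their reads in wtPC12, and 77.8% (71.6 to 83.2%) and 71.0% (63.1 to 78.0%) in hrPC12. Its share was therefore not outside the range of the wtPC12 libraries in hrPC12. The sum of the 5 pore genes was 622 and 1495 normalized counts in wtPC12, and 179 and 157 in hrPC12.

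Along the chromosome, in the order of GRCr8 by which 75.5% of the tested genes could be placed, Scn3a and Scn2a1 are next to each other among tested genes. The genes named here were chosen for their place, after values were known. Galnt3, a glycosyltransferase gene on the far side of Scn2a1, was called lower with a log2 FC of −6.53, from a mean of 354 to 3.80 normalized counts. Ttc21b, beyond it, was not called, with a log2 FC of −0.17. On the far side of Scn3a, Grb14 had a log2 FC of 0.95 and was not called, and Gca was called higher with 2.65. The neighbours of Scn3b were Zfp202 and Gramd1b, with log2 FC of −0.999 and −1.61, neither called, and beyond them Vwa5a and Asam were called higher, with 2.36 and 4.85. The neighbours of Scn4b, Mpzl3 and Fxyd6, had log2 FC of 0.38 and −1.15, and beyond them Mpzl2 and Bace1 had 1.33 and −1.16, and none of these was called. Scn8a lay between Bin2 and Acvr1b, with log2 FC of −3.74 and −1.38, neither called. Beyond Bin2, Smagp was called lower with −4.02, and beyond Acvr1b, Grasp had −0.08 and was not called. In windows of 7 tested genes around the 5 tested members, the median log2 ratio of hrPC12 replicate 1 to replicate 2 lay between −0.20 and 0.18.

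Genes of proteins that hold or modulate the channel were taken from lists. Ankyrin and spectrin tether the pore in the initial segment and the node, where it meets adhesion molecules of the L1 and contactin families. Of the 12 genes on this list 10 were tested, and 3 were called lower and 2 higher (5.46% and 4.84% of all tested genes). The median log2 FC was −1.22 (0.06 over all tested genes). Ank3, the gene of ankyrin G, rose from 315 and 566 to 4476 and 4545 normalized counts (log2 FC 3.35, SE 0.33, Benjamini-Hochberg adjusted p = 0.00247 in the edgeR quasi-likelihood fit). Ank1 was the other gene called higher (log2 FC 4.27). Sptbn4, the gene of the beta4 spectrin of initial segments and nodes, fell from 2152 and 3214 to 91.4 and 96.1 (log2 FC −4.84, Benjamini-Hochberg adjusted p = 0.000763 by edgeR). Sptbn1, the gene of the widely expressed beta2 spectrin, had 5458 and 10505 in wtPC12 and 24063 and 12196 in hrPC12, and was not called (log2 FC 1.18). Tnr (log2 FC −8.29) and Cntn2 (log2 FC −2.13), a matrix protein and a contactin of the region beside the node, were the others called lower, and Tnr had 521 and 2187 normalized counts in wtPC12 replicates 1 and 2, a spread of the same direction as that of Scn8a. Nfasc and Cntnap1 were not called, with log2 FC of −1.60 and −0.84. Ank1, Sptbn4, Tnr and Cntn2 were named after their values were seen.

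Of the 4 fibroblast growth factor homologous factors, which bind the tail of the pore, Fgf11 and Fgf13 were tested. Neither was called by edgeR or DESeq2. At an unadjusted p under 0.05 from edgeR's test 1 was lower and 1 higher (22.7% and 23.6% of all tested genes). Fgf11 had 312 and 529 normalized counts in wtPC12 and 157 and 145 in hrPC12 (log2 FC −1.48). Fgf13 had 2 and 6 reads in wtPC12 and 41 and 14 in hrPC12 (log2 FC 2.47). The 10 tested modulators of trafficking and gating had a median log2 FC of −0.53. Of these 1 was called, S100a10, against 4.84% of all tested genes called higher. It is known to help carry Nav1.8 to the membrane and rose with a log2 FC of 2.39 (SE 0.27). The calmodulin gene Calm2 (log2 FC −0.61) and the ubiquitin ligase gene Nedd4 (0.36) were not called. The secretases that cut beta subunits gave 7 tested genes and 0 called by edgeR or DESeq2. At an unadjusted p under 0.05 from edgeR's test 1 of them, Bace1, was lower, as were 22.7% of all tested genes. The median log2 FC of the 7 was 0.05, with 0.05 for Ncstn, −0.05 for Aph1a and 0.06 for Adam10.

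**Figure D3:**
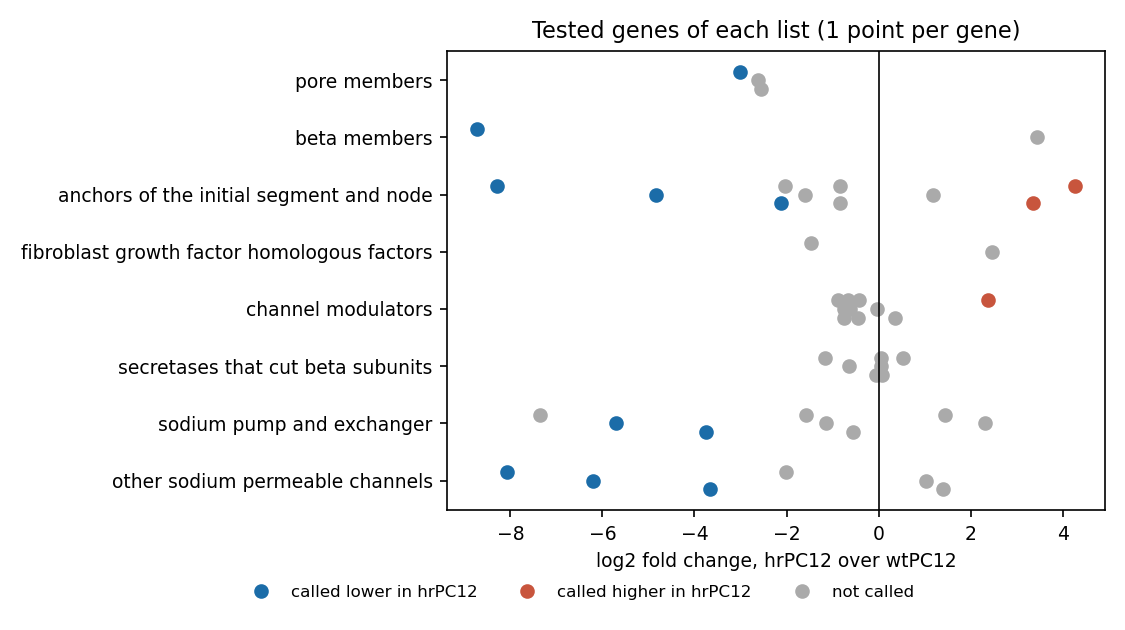
Log2 FC (hrPC12 over wtPC12) of each tested gene of the sodium channel group and of the lists around it, 1 point per gene, coloured by whether it passed both thresholds. The lists of the anchors, of the pump and exchanger and of other sodium permeable channels spread widely, while the 7 secretase genes sit around a median of 0.05.

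The sodium pump restores the gradient that the channels use, with a catalytic alpha subunit, a beta subunit and a small FXYD protein, and the exchangers trade sodium for calcium. Of 15 genes on this list 11 were found and 8 tested. Of these 2 were called lower and 0 higher (5.46% and 4.84% of all tested genes). At an unadjusted p under 0.05 from edgeR's test 6 were lower and 2 higher (22.7% and 23.6% of all tested genes). DESeq2 called 3 lower and 1 higher (6.62% and 6.4% of all tested genes), and the median log2 FC was −1.36. Atp1b2, a beta subunit gene named after its values were seen, was called lower, from 519 and 427 to 30.5 and 39.5 normalized counts (log2 FC −3.76, Benjamini-Hochberg adjusted p = 0.00171 in the edgeR fit). Atp1b1 had 12289 and 11136 normalized counts in wtPC12 and 30669 and 33157 in hrPC12, with a log2 FC of 1.45 (Benjamini-Hochberg adjusted p = 0.00572 by edgeR), which is within the threshold of 2. Atp1b3 and Fxyd6 had log2 FC of −0.55 and −1.15 and were not called. After values were seen, 2 further genes stood out. Slc8a1, a sodium-calcium exchanger gene, had 35 and 146 reads in wtPC12 and 0 and 1 in hrPC12, and was not called (Benjamini-Hochberg adjusted p = 0.0117 by edgeR). Fxyd1 had 0 reads in each wtPC12 library and 72 and 48 in hrPC12, at least 16.6-fold higher against a limit of 3 reads per library, and was not tested.

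Other channels that pass sodium made up 11 genes, of which 9 were found and 6 tested. Of these 3 were called lower and 0 higher (5.46% and 4.84% of all tested genes). At an unadjusted p under 0.05 from edgeR's test 4 were lower and 1 higher, and DESeq2 called 3 and 0, against 22.7% and 23.6%, and 6.62% and 6.4%, of all tested genes. The median log2 FC was −2.84. Unc79, a subunit of the sodium leak channel complex, fell from 3817 and 6189 to 16.9 and 20.2 normalized counts (log2 FC −8.07, SE 0.39). Accn4 and Accn2, genes of acid-sensing channels (Asic4 and Asic1 in current nomenclature), fell with log2 FC of −6.21 and −3.66. Scnn1a, the alpha subunit of the epithelial sodium channel, had 38.4 and 28.8 normalized counts in wtPC12 and 64.3 and 72.9 in hrPC12 (log2 FC 1.03) and was not called.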

How the data were processed

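RNA of both PC12 clones was sequenced as paired-end reads (Illumina TruSeq kit). The rat build was RGSC3.4 (rn4), the aligner TopHat, and the authors deposited raw read counts per gene and library. The processing notes of the submitters name TopHat2 2.0.4, HTSeq 0.5.3 and DESeq 1.9.12. The strand setting and gene annotation are not given in the sources used here, so reads of overlapping antisense genes cannot be told apart, and reads without a unique position (5.85% to 9.13% of those accounted for), which can fall between near-identical stretches of pore genes, were not counted on a gene. Totals of reads outside genes (49.9% to 55.9%) were left out. The deposited table of the authors' own comparison (means, fold changes and p values) was not used.

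Counts were analysed in R 4.3.3 with edgeR 4.0.16 and limma 3.58.1. Genes with a mean under 5 TMM-normalized counts, or with no read in one clone, were removed. The quasi-likelihood test (legacy option on, common dispersion 0.0745) compared hrPC12 with wtPC12 over 13726 genes with Benjamini-Hochberg adjustment. With 2 libraries against 2, an exact permutation test of a single gene cannot go below p = 0.333. On simulated counts of 13726 genes edgeR's test called 193 of 200 changed genes, of which 195 were tested, and 0 others. The planted changes were larger than that of any tested member but Scn3b, and every gene had the common dispersion. The simulation thus cannot give the rate of missed or false calls for these members. Alternatives were RLE factors, library totals, 2 other filters, DESeq2 1.42.0, the legacy option off, other thresholds, and each library left out in turn. Members and lists were chosen with earlier results of these data known. Named genes are the members, Rest, the genes with the highest mean count of each list (at most 4) and the 5 tested genes nearest to the member with the highest count in wtPC12, unless said otherwise. That member was to be chosen per kilobase, which was not possible because transcript lengths were not used here. Promoter sequences are from RefSeq (GRCr8). A few genes of the lists are counted in them and not reported here by name.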

Additional observations from a re-analysis of the deposited data

How the results depend on the processing

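The 5 tested sodium channel genes kept the sign of their log2 FC in the settings in which they were tested, 12 for each, and 11 for Scn3a. Scn2a1 and Scn3b were called in 11 of the 12, Scn8a in 6, Scn4b in 7 and Scn3a in 1 of 11. The settings with an adjusted p under 0.05 and with no log2 FC threshold reuse the main fit. The sign could not change in them, and the calls in them follow from that fit. The number of members called higher, 0 in the analysis reported, was 1 (Scn4b) with RLE factors, with library totals alone, with no filter beyond 1 read, with filterByExpr, with DESeq2 and with an adjusted p under 0.05. The number called lower, 2 in the analysis reported, was 4 with an adjusted p under 0.05, and 3 (Scn8a added) with RLE factors, with no filter or with DESeq2. Of all genes, 665 were called higher in the analysis reported, 1127 with no filter and 1088 with an adjusted p under 0.05. Those called lower numbered 749, 977 and 1003 in the same settings. With RLE factors 901 were lower and 870 higher, and with library totals alone 835 and 902. With filterByExpr 844 were lower and 873 higher, and with DESeq2 909 and 879. The calls over all genes thus rose in these settings as well.

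With each library left out in turn, the members called lower numbered 0 to 3 and those called higher 0 to 1, and of all genes 0 to 859 were called lower and 0 to 962 higher. The lowest values are from the fit without wtPC12 replicate 2, in which the remaining wtPC12 library was assumed to vary like the hrPC12 libraries, and in which 3 members were lower and 1 higher at an unadjusted p under 0.05 from edgeR's test. The cause was not tested. Levels per kilobase were not run, because transcript lengths were not used here. The depth limits Scn4a, Scn9a and Scn2b, whose counts of up to 7 reads leave wide intervals.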
